A study of Aspergillus fumigatus with 12 samples.

Results

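In mycelium given the azo dye Ponceau 2R and sinapic acid, 56 of 10276 genes had a higher mean with either compound alone than in basic medium, and a higher mean again with both together. They were selected on the group means of log2(FPKM + 1) in the series-wide table, where FPKM is a fragment count scaled to gene length and library size. Of all genes, 7216 had a mean over the 12 libraries from 5 to under 1000 FPKM, and a member had to differ by at least 0.5 log2 units in each of 4 steps: dye against basic medium, sinapic acid against basic medium, both against the dye, and both against sinapic acid. All 4 steps were therefore fixed by the choice, and their sizes are given below as a description, with no test. The mirror rule, for falls at each step, held 105 genes.

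The 4 groups of 3 libraries are basic medium (CK), basic medium with Ponceau 2R (P2R), basic medium with sinapic acid (SA), and basic medium with both (P2R+SA), and no other strain, genotype or agent is named for any group. The series text gives 48 h for all of them, whereas column headers of the single-library files hold 36 for the groups without sinapic acid and 48 for those with it, and a further 4 of unexplained meaning for P2R+SA. Should this number mark when cultures were harvested, its effect and that of sinapic acid cannot be told apart in any comparison across the 2 values. The series title names the fungus Trametes hirsuta X-13, while the organism field names Aspergillus fumigatus. Nothing in the labels ties replicate libraries to cultures of their own, and p-values therefore measure only the spread among these libraries, which may be technical.

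White-rot fungi such as Trametes grow on wood and secrete laccases and peroxidases, enzymes that oxidise lignin and also attack many synthetic dyes. Azo dyes like Ponceau 2R are held together by nitrogen double bonds, which these enzymes can break. Sinapic acid, a phenolic compound of plants, resembles the building blocks of lignin, and small phenols of this kind can be oxidised by laccase and then carry electrons to compounds that the enzyme reaches poorly. The series asks how sinapic acid changes the fungus when the dye is present. The gene IDs carry no names or products and 0 of them matched the reference table at hand, so no function can be given for any member.

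The libraries held 35087335 to 38434871 recovered fragments, so depth differed little between groups. SA replicate 1 and P2R+SA replicate 1 stood apart from the other libraries of their groups in these genes. SA replicate 1 was the highest of the 3 SA libraries in 37 of the 56 members (66.1%), against 42.1% of the other genes of the same expression range. P2R+SA replicate 1 was the lowest of its group in 40 members (71.4%), against 31.1% of the other genes. Among the other genes it was most often the highest of its group (57.5%, against 10.7% of members). That library therefore stood apart beyond the members too, mostly in the other direction. The rule used group means alone, but a single high library raises its group mean, so these shares are not independent of the choice. Without SA replicate 1 the rule held for 49 genes, 42 of them members. Without P2R+SA replicate 1 the rule held for 103 genes, 54 of them members. Without both of these libraries it held for 86, 41 of them members.

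The members spanned a wide range of levels. In CK, 28 of them had a mean under 10 FPKM, 17 lay from 10 to under 50, and 11 lay at 50 or more. The median member had a mean of 9.89 FPKM in CK, 21.1 with the dye alone, 27.4 with sinapic acid alone, and 60.4 with both. Added up over the 56 members, the level was 1555 to 1654 FPKM in the CK libraries, 3660 to 4455 in P2R, 4953 to 6552 in SA and 9498 to 12534 in P2R+SA. None of these 4 ranges of sums overlapped its neighbour, but sums weigh the most abundant members most, and the rule chose on every step except P2R to SA. By the median member, P2R and SA did overlap: 19.6, 22.7 and 24.4 FPKM in P2R replicates 1 to 3, and 39.5, 22.5 and 23.5 in SA. The values are shares of all RNA in bulk mycelium, so fewer or more cells of a kind and less or more RNA per cell cannot be told apart.

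The steps were of similar median size. On the log2(FPKM + 1) scale the median member differed from CK by 0.97 with the dye alone (range 0.51 to 3.05), by 1.09 with sinapic acid alone (0.52 to 3.202) and by 2.18 with both (1.23 to 5.54). Between P2R+SA and P2R the median difference was 1.05, and between P2R+SA and SA it was 0.96. Over the 7216 genes of the same range the corresponding medians lay between -0.11 and -0.03. In P2R+SA, 34 members lay at least 2 log2 units above CK, 13 at least 3 and 6 at least 4. All 4 steps reached 1 log2 unit in 10 members. Median-of-ratios scaling moved the median of all 9240 tested genes in P2R+SA against CK from -0.11 to -0.0048. Under it all 56 members still lay above CK, which a shift of that size could not have changed, the smallest member difference being 1.23.

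**Figure D1:**
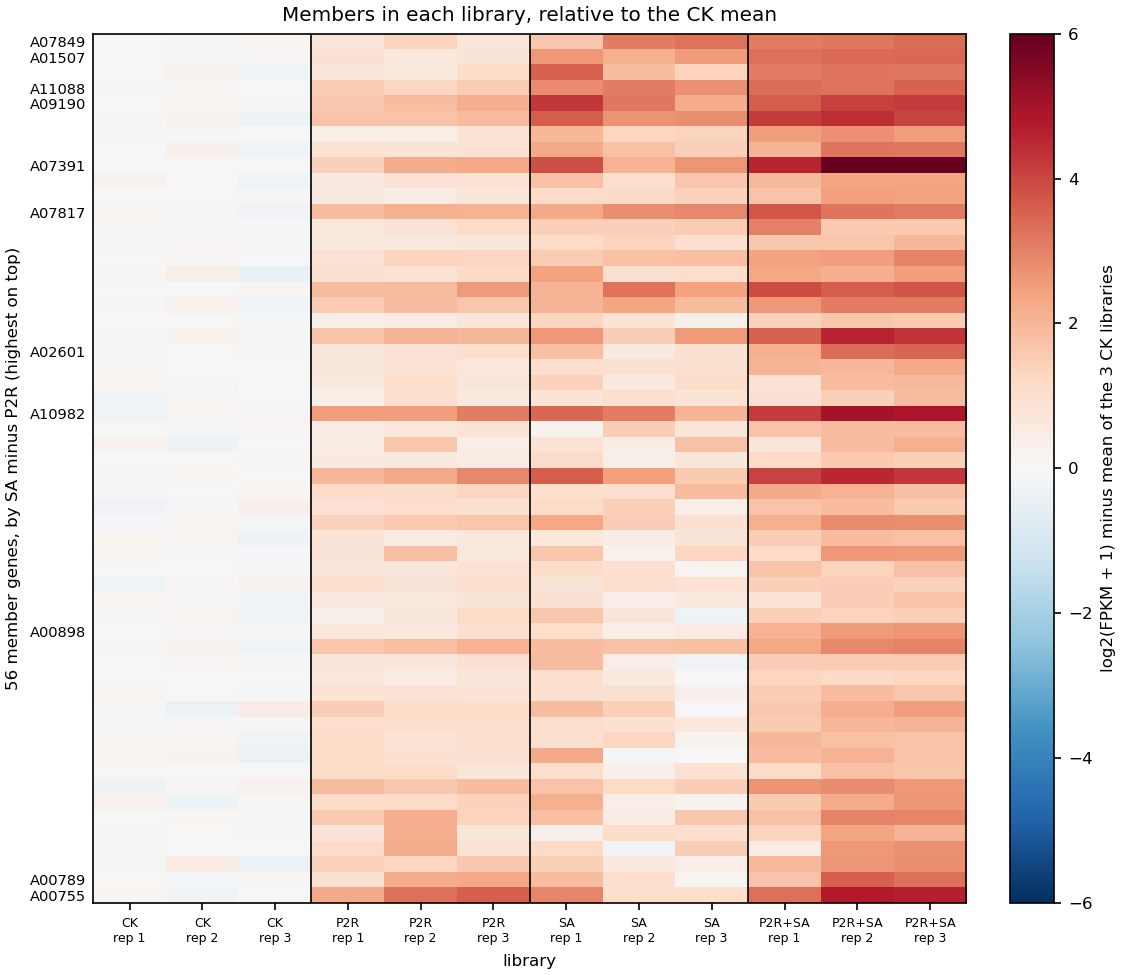
Level of the 56 members (rows) in each of the 12 libraries (columns) as log2(FPKM + 1) minus the mean of the 3 CK libraries, ordered by the difference between SA and P2R; only members described in the text carry their ID. The P2R+SA columns are the darkest, and P2R+SA replicate 1 is paler than replicates 2 and 3 in most rows (it is the lowest of its group in 40 of 56).

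The 2 members with the largest difference between P2R+SA and CK on the log2 scale were A07391 and A10982. A07391, with a coding length of 675 bp, had 4.07, 3.97 and 4.02 FPKM in CK replicates 1 to 3, then 12.5, 22.6 and 23.8 with the dye alone, 72.0, 20.7 and 30.8 with sinapic acid alone, and 119, 331 and 320.0 with both. The CK libraries were nearly equal, the P2R and SA libraries overlapped each other, and all P2R+SA libraries lay above all others, replicate 1 by the smallest margin. Its mean in P2R+SA, 257 ± 119 FPKM (SD, n = 3), was 6.24-fold that in SA and 13.1-fold that in P2R.

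A10982 was the most abundant member. Its coding length is 606 bp, and it had 47.5, 62.9 and 59.6 FPKM in CK, 320.4, 319.8 and 473 with the dye alone, 629, 487 and 235 with sinapic acid alone, and 1036, 1836 and 1631 with both. No P2R+SA library overlapped any other group, while P2R and SA overlapped. The mean in P2R+SA was 1501 ± 415 FPKM (SD, n = 3), 26.5-fold that in CK, 4.05-fold that in P2R and 3.33-fold that in SA.

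**Figure D2:**
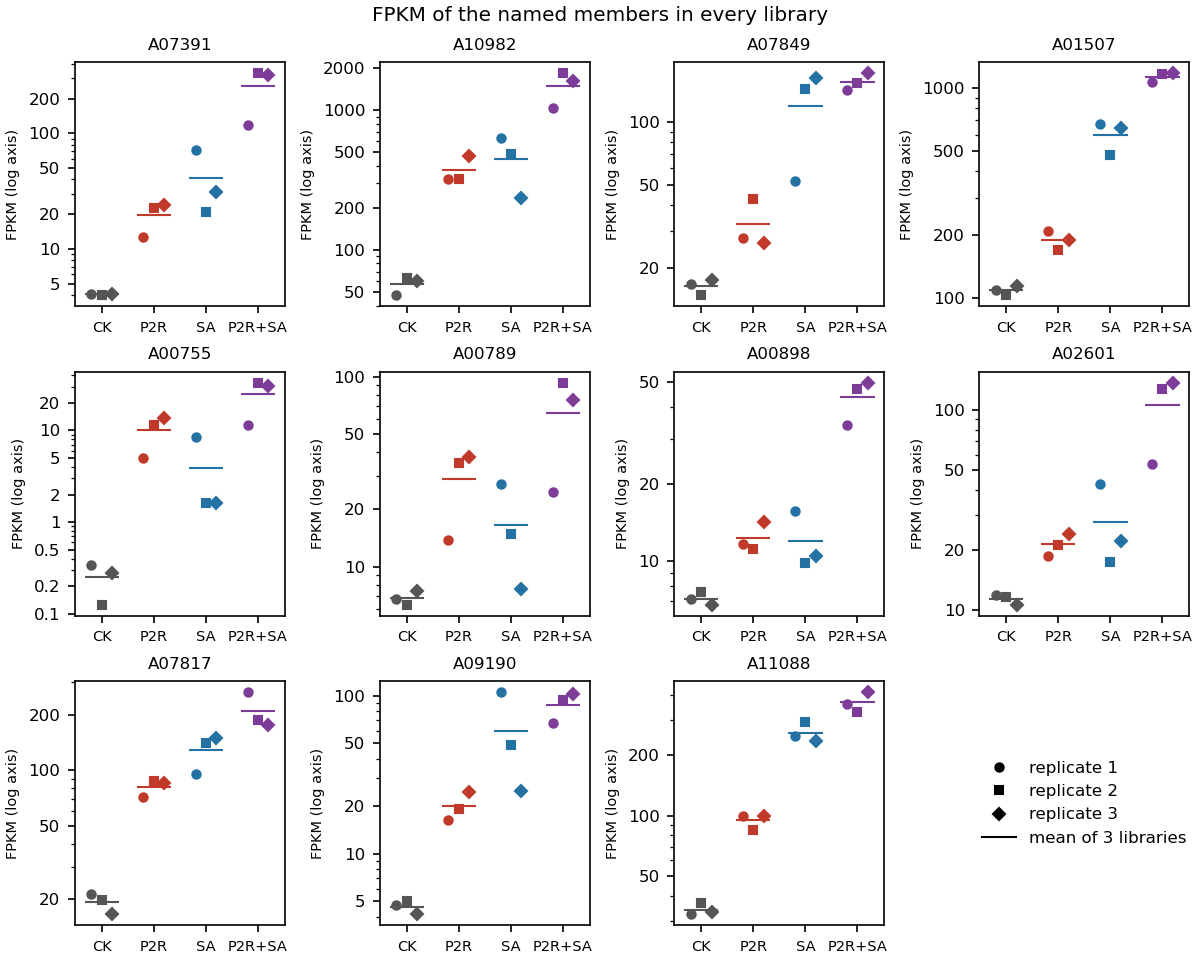
FPKM (log axis) of the 11 members described in the text in every library, by group; the symbol gives the replicate number and the line the mean of 3 libraries. In A01507 the 4 groups do not overlap at any step, whereas in A00789 and A02601 the value of P2R+SA replicate 1 lies far below replicates 2 and 3.

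How far the libraries of the groups kept apart differed between the steps. The 3 P2R libraries all lay above the 3 CK libraries in 56 of 56 members (23.9% of the 9240 tested genes), and the SA libraries lay above CK in 48 (14.6%). For P2R+SA above P2R it was 47 (18.2%) and for P2R+SA above SA 36 (8.04%). Groups did not overlap at any of the 4 steps in 32 members, against 0.963% of tested genes. The rule chose on these same steps, so the member counts say nothing beyond the choice. The step from SA to P2R+SA was the one in which most members overlapped, 20 of 56.

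The same steps were then read in libraries left out of the choice in that run. The rule was applied to the 8 libraries of 2 replicate numbers, and the genes it found were looked up in the 4 libraries of the remaining number. With replicate 2 left out, 50 genes were chosen, and 47 of them (94.0%) were higher at all 4 steps in the replicate 2 libraries, against 8.54% of the other genes of the same range. With replicate 3 left out, 36 of 39 (92.3%) were, against 14.1%. With replicate 1 left out, it was 33 of 81 (40.7%) against 6.25%. The other genes were not chosen for a rise at any step, so their share is no like baseline. Libraries of a group may be technical replicates, and the members were chosen with earlier results known. The shares are therefore a description and not independent support.

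The 4 steps did not fare alike in the replicate 1 libraries. All 81 genes were higher in P2R than in CK and in SA than in CK there. P2R+SA replicate 1 exceeded P2R replicate 1 in 55 of the 81 (67.9%, against 49.1% of other genes). It exceeded SA replicate 1 in 37 (45.7%, against 46.8%), with a median difference of -0.07 log2 units. In replicates 2 and 3 the same step was higher in 48 of 50 and 37 of 39 genes, with medians of 1.17 and 1.25. Genes chosen without the replicate 1 libraries were thus no more often higher at this step in those libraries than other genes were. Of the 56 members themselves, whose choice used all libraries, P2R+SA exceeded SA in 39 in replicate 1, 56 in replicate 2 and 55 in replicate 3. The number joins libraries by name only, so these are readings of single libraries with no error.

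**Figure D3:**
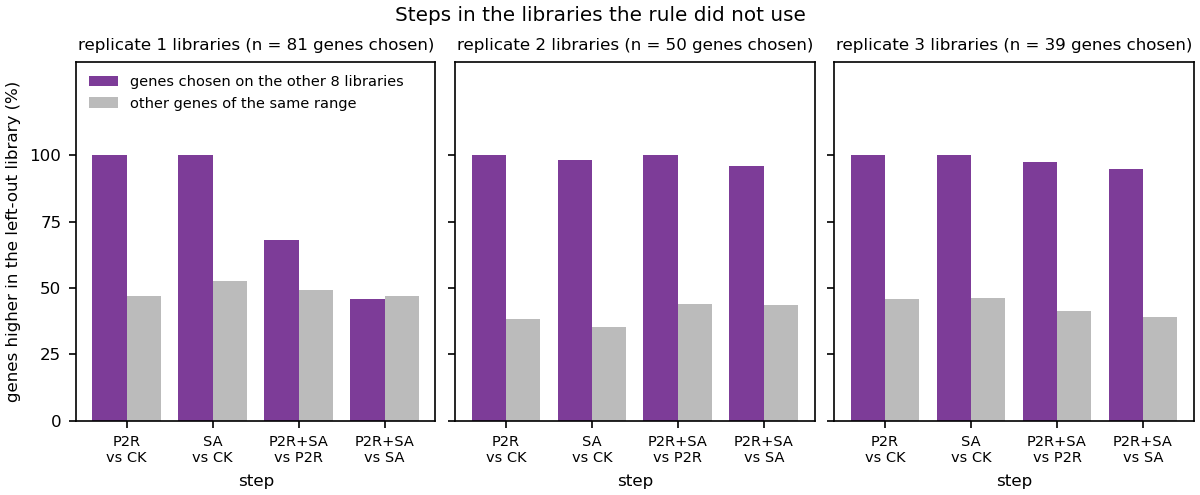
Share of genes (%) that were higher at each of the 4 steps in the libraries of the replicate number that the rule did not use, for genes chosen on the other 8 libraries (purple) and for other genes of the same expression range (grey). The purple bars lie at 94.9% or more for replicates 2 and 3, while for replicate 1 the last step, P2R+SA vs SA, is at 45.7% beside 46.8% in grey.

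Replicates of the members lay further apart than those of other genes in the same range, most of all in SA. The median SD between SA libraries was 0.51 log2 units in members and 0.22 over the 7216 genes; it was 0.13 and 0.09 in CK, 0.17 and 0.13 in P2R, and 0.26 and 0.21 in P2R+SA. The 3 SA libraries spanned over 1 log2 unit in 26 members, P2R+SA in 14, P2R in 6 and CK in 0. SA replicate 1 was at least 1.5 times both other SA libraries in 17 members (30.4%, against 3.46% of other genes). P2R+SA replicate 1 was at least 1.5 times below both others in 19 (33.9%, against 6.55%), and both held in 7 (12.5%, against 0.31%). It was at least 1.5 times above both others in 1 member (1.79%, against 9.39% of other genes). In 6 members P2R replicate 2 was at least 1.5 times both other P2R libraries (10.7%, against 2.54%), and in 5 of these P2R+SA replicate 1 was low as well (8.93%, against 1.65%). What sets these libraries apart was not tested. The SA mean entered the rule and a single high library raises it, so the SA values here are not independent of the choice.

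The genes most like the members shared both this spread and the order of libraries. These 202 genes were at least 0.5 log2 units higher in P2R and in SA than in CK, but less than 0.5 higher in P2R+SA than in either. SA replicate 1 was the highest SA library in 116 of them (57.4%), and P2R+SA replicate 1 the lowest of its group in 152 (75.2%). Their median SD between SA libraries was 0.42 log2 units. Relative to basic medium their medians stood at 0.95 log2 units with the dye alone, 0.74 with sinapic acid alone and 0.93 with both. Members, by their choice, went on to 2.18 in P2R+SA. Neither the spread in SA nor the order of libraries was seen in the stepwise genes alone.

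The choice treated the dye and sinapic acid alike and did not use their difference, so it fixed no sign of SA minus P2R. It did use both group means, and SA libraries of the members spread more (median SD 0.51 log2 units, against 0.17 in P2R). The comparison is therefore not free of the choice, and the counts are given as a description. SA was higher than P2R in 13 of 56 members by limma on all 9240 genes (Benjamini-Hochberg adjusted p under 0.05), beside a background of 13.0% of tested genes. It was lower in 0 members, beside a background of 12.3%. At an unadjusted p under 0.05, 15 members were higher and 1 lower, beside 3646 of 9240 tested genes in either direction. With limma-voom on recovered fragments 12 were called higher and 0 lower, beside 12.8% and 12.4% of tested genes. The mean of SA lay above that of P2R in 37 members and below it in 19. The median member differed by 0.16 log2 units, or by -0.01 without SA replicate 1, and the median of all tested genes by 0.03.

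In the 13 called members the difference ran from 0.54 to 1.74 log2 units, with limma adjusted p from 1.78e-05 to 0.0364. The P2R and SA libraries did not overlap in any of the 13, but the test picked them on this same difference, so this adds nothing to the calls. Relative to CK, the median of the 13 was 0.85 with the dye and 2.25 with sinapic acid, and P2R+SA lay a median of 0.88 above SA. In the other 43 members the medians were 0.99 in P2R and 0.96 in SA, and P2R+SA lay a median of 1.01 above SA. The split was made on SA minus P2R, and the rule used the same means. These medians are therefore not independent of either, and no separate kinds of member are read from them. Of the 13, 6 passed under all 22 alternatives.

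Of the fits that left out 1 library, the one without SA replicate 1 moved the count of members lower in SA the most. It called 10 members higher in SA and 5 lower, beside 11.5% and 11.8% of tested genes, and the median difference of the members turned from 0.16 to -0.01. Leaving out P2R+SA replicate 1 gave 15 and 1, beside 17.0% and 15.6%. Leaving out both gave 15 and 6, beside 16.4% and 16.5%, again with a median of -0.01. The counts were 7 and 1 (beside 8.97% and 8.63%) when P2R replicate 1 was dropped, and 7 and 0 (6.99% and 8.56%) for P2R replicate 2. The header number is 48 for SA and 36 for P2R, so this comparison cannot be told apart from a difference in time, if that is what the number marks.

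The 2 called members with the largest excess in SA were A07849 and A01507. A07849, of 1152 bp, had 16.6, 14.7 and 17.4 FPKM in CK, 27.8, 42.8 and 26.2 with the dye alone, 52.3, 144 and 164 with sinapic acid alone, and 142, 154 and 172 with both. SA replicates 2 and 3 already lay within the range of P2R+SA, and only SA replicate 1 was clearly below it. SA exceeded P2R by 1.74 log2 units (SE 0.34, limma adjusted p = 0.00380, range 2.63e-05 to 0.0324 over 22 alternatives). All 3 SA libraries lay above all 3 P2R libraries, but the gene was named for this difference, so that adds nothing to the call.

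A01507 kept all 4 groups apart with little spread. It is 615 bp long and had 109, 103 and 114 FPKM in CK, 208, 168 and 188 with the dye alone, 673, 477 and 644 with sinapic acid alone, and 1065, 1162 and 1175 with both. Each group lay wholly above the one before. SA exceeded P2R by 1.65 log2 units (SE 0.13, limma adjusted p = 1.78e-05, range 3.79e-06 to 0.00137 over 22 alternatives).

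Since fewer than 2 members were called lower in SA, the most negative differences over all members are given, those of A00755 and A00789. A00755, of 1086 bp, had 0.34, 0.13 and 0.28 FPKM in CK, 4.96, 11.5 and 13.7 with the dye alone, 8.49, 1.62 and 1.62 with sinapic acid alone, and 11.5, 33.1 and 30.5 with both. It was nearly silent in basic medium, with as few as 5 fragments in a library, and SA replicate 1 held over 5 times the level of the other SA libraries. The difference between SA and P2R was -1.36 log2 units (SE 0.52, limma adjusted p = 0.0762). Without SA replicate 1 it was -1.98 (limma adjusted p = 0.00817), and leaving out P2R replicate 1 (0.0494), P2R+SA replicate 1 (0.0471) or both first libraries (0.00114) also gave a pass.

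A00789, of nearly the same length at 1089 bp, had a like order of libraries. It had 6.74, 6.30 and 7.41 FPKM in CK, 13.8, 35.3 and 37.7 with the dye alone, 27.1, 14.8 and 7.62 with sinapic acid alone, and 24.7, 92.8 and 75.5 with both. P2R replicate 1 and P2R+SA replicate 1 were low and SA replicate 1 was high, so that P2R+SA overlapped both single compounds. Its difference between SA and P2R was -0.81 log2 units (SE 0.52, limma adjusted p = 0.272). It passed in 1 of 22 alternatives, the fit without SA replicate 1 and P2R+SA replicate 1 (-1.24, limma adjusted p = 0.0308).

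**Figure D4:**
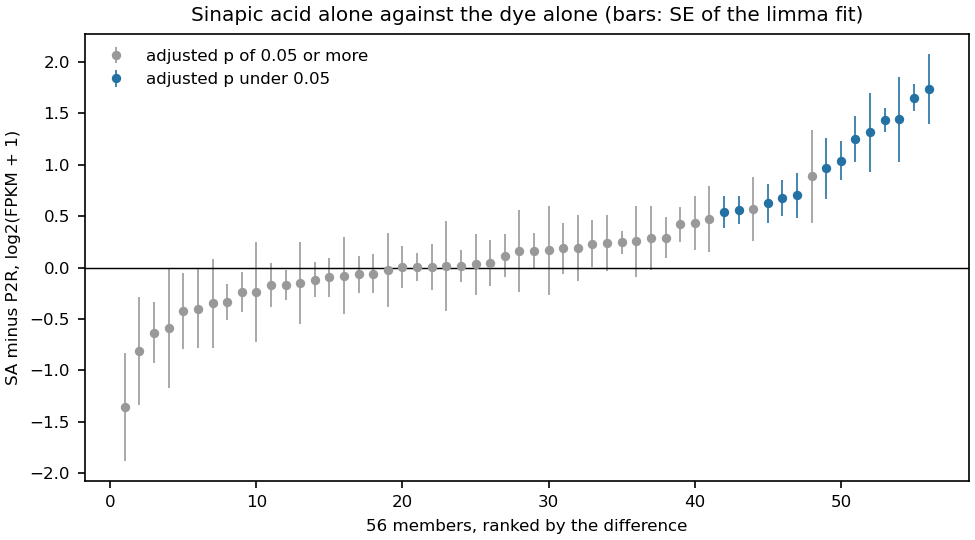
Difference between SA and P2R in log2(FPKM + 1) for the 56 members, ranked, with the SE of the limma fit over all 12 libraries (n = 3 per group). Blue points have an adjusted p under 0.05: all 13 lie above 0, from 0.54 to 1.74.

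The level with both compounds was set against the single ones on 2 scales. On the FPKM scale, P2R+SA lay above the sum of the CK mean and both single increases in 56 of 56 members. The limits of the rule already place 26 of them there. The median ratio to that sum was 1.28, 16 members exceeded 1.5 times and 4 exceeded 2 times, and the median over 7067 genes of the same range with a sum above 0 was 0.99. On the log2 scale, where equal folds would multiply, the interaction (what sinapic acid adds with the dye, less what it adds without) was below 0 in 31 members and above 0 in 25, with a median of -0.04. It lay within 0.5 log2 units of 0 in 41 members. The rule bears on both quantities, so nothing is read from the sum either. The median interaction also changed sign with the setting, being 0.11 without SA replicate 1, 0.27 without both first libraries and -0.17 with a pseudocount of 0.1.

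**Figure D5:**
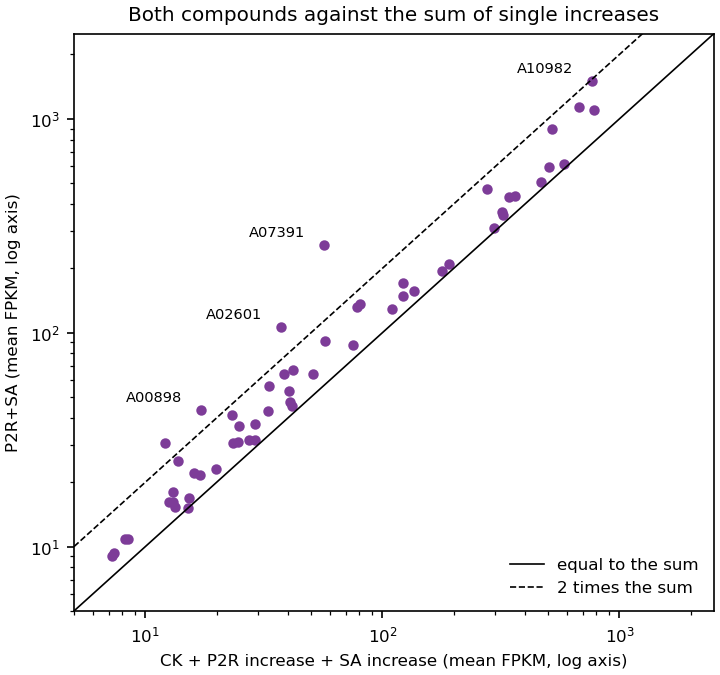
Mean FPKM in P2R+SA (log axis) of each of the 56 members against the CK mean plus the increases in P2R and in SA (log axis); the solid line marks equality and the dashed line 2 times the sum. All 56 points lie above the solid line, and 4 lie above the dashed line, led by A07391 at 4.52 times the sum.

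The interaction passed for 2 of 56 members, both negative (limma adjusted p under 0.05), beside backgrounds of 0.693% for negative and 0.455% for positive values. It was positive and called in 0 members. At an unadjusted p under 0.05, 2 were positive and 5 negative, beside 1350 of 9240 tested genes in either direction. By limma-voom, 0 were positive and 1 negative, beside 0.314% and 0.563%. The rule used the means that make up the interaction, so nothing is read from these counts. Leaving out 1 library gave a negative count of 0 for each CK library, P2R replicates 1 and 3 and P2R+SA replicate 2. Those fits called 0.293% to 0.585% of tested genes negative. The negative count was 1 for P2R replicate 2 (beside 0.357%), SA replicate 3 (0.964%) and P2R+SA replicate 3 (0.509%). The positive count became 1 on dropping SA replicate 1 (beside 0.694%), 2 on dropping P2R+SA replicate 1 (0.478%) and 4 on dropping both (1.23%).

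The largest interactions were in A00898 and A02601. A00898, of 837 bp, had 7.08, 7.55 and 6.76 FPKM in CK, 11.7, 11.1 and 14.2 with the dye alone, 15.7, 9.81 and 10.5 with sinapic acid alone, and 34.0, 47.1 and 49.7 with both. Both single compounds held nearly the same level, and every P2R+SA library was more than 2 times the highest single-compound library. Its interaction was 1.08 log2 units (SE 0.27, limma adjusted p = 0.0797, range 0.00194 to 0.196 over 21 alternatives, of which 5 passed). The passing ones were a pseudocount of 5, array quality weights, and the fits without SA replicate 1 (0.0188), without P2R+SA replicate 1 (0.0373) and without both.

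A02601, of 1917 bp, had 12.01, 11.6 and 10.7 FPKM in CK, 18.7, 21.3 and 24.2 with the dye alone, 42.8, 17.3 and 22.3 with sinapic acid alone, and 53.7, 128 and 137 with both. SA replicate 1 and P2R+SA replicate 1 lay close together, at 42.8 and 53.7 FPKM, while replicates 2 and 3 of P2R+SA were over 5 times replicates 2 and 3 of SA. The interaction was 1.06 log2 units (SE 0.49, limma adjusted p = 0.352). It passed in 2 of 21 alternatives. Under array weights it was 1.47 (limma adjusted p = 0.0145), and without both first libraries 1.85 (0.000829).

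The most negative interactions were in A07817 and A09190. A07817, of 1272 bp, had 21.2, 19.8 and 16.6 FPKM in CK, 72.0, 87.1 and 85.7 with the dye alone, 95.5, 140.1 and 149 with sinapic acid alone, and 265, 187 and 176 with both. Unlike most members it had its highest P2R+SA value in replicate 1 and its lowest SA value in replicate 1, and the groups did not overlap. SA exceeded P2R by 0.62 log2 units (SE 0.19, limma adjusted p = 0.0333, up to 0.113 over 22 alternatives, of which 15 passed). The interaction was -1.33 (SE 0.27, limma adjusted p = 0.0421, range 0.000829 to 0.135 over 21 alternatives, of which 8 passed). Leaving out any single CK or P2R library ended the call, as did leaving out SA replicate 3 or P2R+SA replicate 2 or 3. A pseudocount of 5, no filter, limma-voom and a block for replicate number (limma adjusted p = 0.0924) also ended it.

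A09190, of 1101 bp, had 4.70, 5.04 and 4.15 FPKM in CK, 16.3, 19.3 and 24.6 with the dye alone, 105, 48.9 and 25.1 with sinapic acid alone, and 67.6, 94.0 and 102 with both. The SA libraries spread over 4-fold, and SA replicate 1 exceeded every P2R+SA library. SA exceeded P2R by 1.31 log2 units (SE 0.38, limma adjusted p = 0.0268), a call that 17 of 22 alternatives kept. It was lost in a fit to the P2R and SA libraries alone (limma adjusted p = 0.0880), without P2R replicate 1 (0.0871) or 2 (0.0745) and without SA replicate 1 (0.0528) or 2 (0.0513). Its interaction of -1.13 did not pass (SE 0.54, limma adjusted p = 0.367).

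A11088 is named because it was the other member with a called interaction, a choice made after its values were seen. It is 711 bp long and had 32.4, 36.7 and 33.1 FPKM in CK, 99.8, 84.9 and 99.9 with the dye alone, 248, 293 and 236 with sinapic acid alone, and 360.0, 330 and 412 with both. The 4 groups did not overlap, and P2R+SA stood only 0.50 log2 units above SA, the smallest such step of any member. SA exceeded P2R by 1.44 log2 units (SE 0.12, limma adjusted p = 1.82e-05), and the call held under 22 of 22 alternatives. The interaction was -0.95 (SE 0.17, limma adjusted p = 0.0224, range 0.00508 to 0.0783 over 21 alternatives, of which 14 passed). Among fits that left out 1 library, it was lost for each CK library, P2R replicates 1 and 3 and P2R+SA replicate 2.

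Members were somewhat shorter than other genes of their range. The median coding length was 1095 bp (quartiles 766 and 1493), against 1365 bp (903 and 2091) over 7212 genes of the same range. The median of the mean level over all libraries was 30.5 FPKM, against 32.1. Their median lay below that of the range in CK (9.89 against 31.3 FPKM) and above it in P2R+SA (60.4 against 29.8). The rule asked for a rise from CK to P2R+SA, so at similar mean levels these gaps come with the choice. Every member passed the filter for the tests, and 3 members had fewer than 50 fragments in some library. By ID number, 6 members (10.7%) had another member within 3 numbers, against 2.97% of the other genes of the range. The distance of 3 was picked after the IDs were seen, and no source used here says whether ID numbers follow the genome.

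The limits of the rule fell within a continuous range of values. The smallest member difference was 0.514 for P2R against CK, with the nearest gene outside at 0.499, and 0.517 against 0.448 for SA. For P2R+SA against P2R these were 0.543 and 0.485, and for P2R+SA against SA 0.502 and 0.499. A lone failure at the step from P2R to P2R+SA kept 95 genes out, while 23 failed only the step from SA, 17 only that from CK to P2R and 6 only that from CK to SA. A further 2 genes met all steps with a mean under 5 FPKM and 3 with a mean of 1000 or more. Of the 56 members, 27 met the rule without each of the 12 libraries in turn.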

How the data were processed

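RNA of mycelium from 12 libraries was analysed as FPKM values that the authors deposited in a series-wide table and in 12 per-library files with the same values. Per the submitters' processing notes, the tools were HTSeq, HISAT2, fastp and R 3.2.0, with no roles stated. The sources used here name no genome build, annotation or strandedness, so reads shared by near-identical or overlapping genes could not be checked. Whole fragments and coding lengths were recovered from the per-library values for 10270 of 10276 genes (99.94%, tolerance 1e-06) and served for depth, length and an alternative test.

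The members and tests were chosen with earlier results of these data known. Members were found from group means of log2(FPKM + 1). limma 3.58.1 in R 4.3.3 was fitted, with an intensity trend and no block, to log2(FPKM + 1) of the 9240 genes that reached 1 FPKM in 3 or more of all 12 libraries, with 8 residual degrees of freedom; p-values were two-sided and adjusted over all tested genes by Benjamini-Hochberg. A pseudocount of 1 understates changes of low genes. The fit and the recovery were tested on simulated data. For the fit, the simulation changed genes in SA against P2R alone, gave all genes the same relative spread and held no outlying library. It therefore does not cover the wide SA spread of the members. Replicate numbers were taken from the titles. Of 18 same-numbered pairs of libraries from different groups, 3 had deviations from the group means that correlated above 0.1, so the numbers were not taken as pairs.

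IDs were named by a rule: the 2 members with the largest difference between P2R+SA and CK, and the 2 at either end of SA minus P2R (among called members where at least 2 were called) and of the interaction. Alternatives covered pseudocount, scaling, filter, tool, weights, block and each library left out.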

Additional observations from a re-analysis of the deposited data

Results flagged for a closer look

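In 2 members the interaction had an adjusted p under 0.05 (limma, over 9240 genes), and these values are given as a description. In A07817 the interaction was -1.33 log2 units: SA lay 2.66 above CK, whereas P2R+SA lay 1.33 above P2R. In A11088 it was -0.95: SA lay 2.89 above CK and P2R+SA 1.94 above P2R. Both had been chosen on the group means that make up the interaction, and each call was lost without any single CK library, so no dependence of one compound on the other is read from them.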

How the results depend on the processing

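The 56 genes became 29 with a step of 0.75, 86 without SA replicate 1 and P2R+SA replicate 1, and 48 to 103 with 1 library left out. A pseudocount of 5 gave 41, 0.1 gave 60, median-of-ratios scaling 65, quantile normalization 64, a mean of at least 1 FPKM 58 and a step of 0.4 gave 82. The 13 members called higher in SA than in P2R became 7 to 15 with 1 library left out (6.99% to 17.0% of tested genes). Under the other alternatives they became 9 to 15 (8.62% to 16.4%). The 0 called lower became 0 to 5 (8.56% to 15.6%), and 6 without both first libraries (16.5%). Positive interactions, 0, became 1 with a pseudocount of 5 (0.606% of tested genes), 2 with array quality weights (2.13%) and 4 without both first libraries (1.23%). They became 0 to 2 with 1 library left out (0.0869% to 1.75%). Negative interactions, 2, became 1 with a pseudocount of 5 (0.758%), with no filter (0.506%) or with limma-voom (0.563%). With 1 library left out they became 0 to 2 (0.293% to 1.82%). The replicate block left 0 negative interactions (0.476%) and 12 members higher in SA (12.1%). Replicate numbers are shared names here: no library correlated best with its own number in every other group (0 of 12). The 32 members without overlap became 32 to 42 with 1 library left out. For a fixed set of members this count cannot fall there, since fewer libraries can only overlap less. The counts of held-out genes moved by less than 1.5 times under median-of-ratios scaling and a pseudocount of 0.1. The cause of these shifts was not tested, and none of the named values reversed. Depth limits A00755 in CK, with as few as 5 fragments in a library, and with 3 libraries a group the SE of differences limits the rest.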
